A study of Homo sapiens with 24 samples.

Results

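DAXX_KO and WT U87-T cells were compared under control conditions, without etoposide. The comparison rests on 6 of the 24 RNA-seq libraries of the study, 3 of WT and 3 of DAXX_KO, and on the 15247 of 57736 genes whose counts were high enough to be tested. U87-T is the human glioblastoma line U87 carrying a TERT transgene, the catalytic subunit of telomerase. The WT cells carried an empty Cas9 vector, and DAXX_KO is 1 clone with features of alternative lengthening of telomeres (ALT) that was grown from a single cell after Cas9 editing of DAXX. Control cells are labelled as untreated, and as DMSO in the figures of the study. Because the knockout is 1 clone, effects of losing DAXX and differences that belong to the clone cannot be told apart. For the DAXX_KO libraries, titles and descriptions name DAXX but the genotype field names ATRX, and the titles were followed.

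DAXX is a histone chaperone that works with the chromatin remodeler ATRX to place the histone variant H3.3 at telomeres, pericentric repeats and other heterochromatin. It also resides in PML nuclear bodies, where it binds transcription factors, p53 regulators and SUMO-modified proteins. Loss of DAXX or ATRX is known in tumors that maintain their telomeres by recombination instead of telomerase.

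QuantSeq libraries were used, which are designed to read the 3′ ends of polyadenylated transcripts, so that a count mostly stands for a transcript end. Totals were 8883118 to 10410014 counts in WT and 6928950 to 7662230 in DAXX_KO. Levels are given as CPM, counts scaled to a common library size with the TMM method of edgeR, as the mean of 3 libraries or for each library in the order of the replicate numbers. Genes were called by the quasi-likelihood test of edgeR at a Benjamini-Hochberg adjusted p below 0.05. The study states biological replication for its experiments in general, but the labels do not say whether these libraries come from separate cultures, so p-values measure the spread between them. A count of 3, taken as the limit of detection, equals 0.296 to 0.394 CPM and covers counting error only. Summed over 8 mesenchymal glioma markers, levels reached 7520 to 8090 CPM in WT and 5730 to 6080 CPM in DAXX_KO. Most of this sum was VIM, which fell, while FN1, another member, rose (levels below). The sum therefore does not give the direction of each member. Of 4 astrocyte markers, GFAP and AQP4 were at 3 counts or fewer in every control library. All 4 together summed to 15.5 to 20.2 CPM in WT and 12.3 to 16.5 CPM in DAXX_KO. Summed neuronal markers fell between 454 and 500 CPM in WT and between 278 and 302 CPM in DAXX_KO, and epithelial markers between 26.0 and 32.1 CPM and between 5.14 and 8.61 CPM. In such bulk RNA, fewer cells with a transcript and less of it per cell cannot be told apart.

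DAXX mRNA was 35.2, 33.3 and 32.7 CPM in the WT libraries and 6.24, 4.60 and 6.57 CPM in the DAXX_KO libraries. The groups did not overlap, and DAXX fell by 2.53 on the log2 scale (SE 0.15, adjusted p = 7.19e-11). The position of the edit was not given in the sources used here, so these reads check the label by level only. ATRX, the partner of DAXX, was 221, 217 and 243 CPM in WT and 414, 378 and 361 CPM in DAXX_KO, a rise of 0.76 on the log2 scale (SE 0.07, adjusted p = 2.43e-08). ATRX lies in a part of chromosome X where 108 of 187 genes were called higher and 15 lower, with a median of 0.45. The mRNA that was lower is the one named by the titles, and the one named by the genotype field was higher.

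Over all genes, 8145 of 15247 (53.4%) were called, with 4098 higher in DAXX_KO (26.9%) and 4047 lower (26.5%). A change of at least 2-fold was called for 2547 genes (16.7%), of which 1560 were higher (10.2%) and 987 lower (6.47%). Changes of at least 16-fold were found for 105 higher and 149 lower genes. The typical change was small, with a median absolute log2 fold change of 0.439. Scaling by library totals instead of TMM moved the median of all genes from 0.02 to 0.20 on the log2 scale, and the split of calls from 4098 higher and 4047 lower to 5530 and 2829. Changes below are therefore relative to the bulk of genes under TMM. The WT and DAXX_KO libraries did not overlap for 9146 of the tested genes (60%), so such separation of a single gene was common here.

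**Figure D1:**
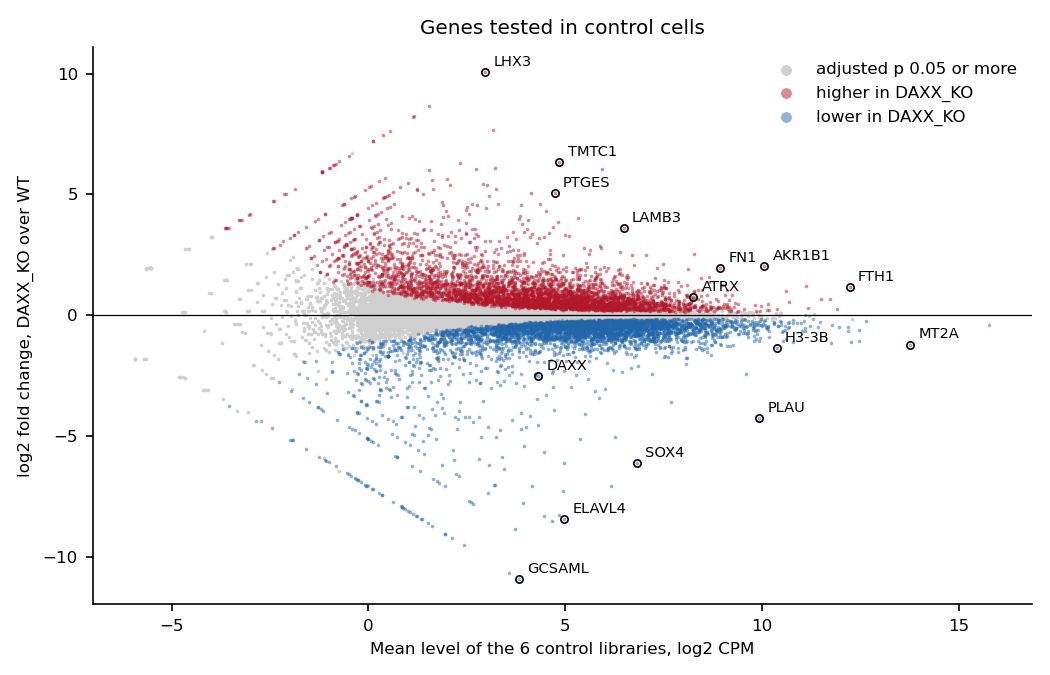
Each point is 1 of the 15247 tested genes, with its mean level over the 6 control libraries (log2 CPM) on the horizontal axis and the log2 fold change of DAXX_KO over WT on the vertical axis. Red points were called higher (4098 genes) and blue points lower (4047 genes), and the slanted lines at the left are genes without a count in 1 group.

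Protein-coding genes and long noncoding RNAs differed in how their calls were split. Of 12342 protein-coding genes, 28.7% were called higher and 29.7% lower. Of 1676 lncRNA genes, 22.4% were called higher and 11.1% lower, with a median log2 fold change of 0.16. Among genes with LINC names, which are intergenic lncRNAs, 67 of 264 were higher (25.4%) and 28 lower (10.6%). Among those named as antisense RNAs 91 of 373 were higher (24.4%) and 49 lower (13.1%). Over all genes the shares were 26.9% and 26.5%, so it was mainly the lower shares that differed. With etoposide, LINC genes gave 55 higher and 44 lower calls, and antisense RNAs 70 and 65. Whether the counting used strand is not known from the sources used here, so antisense transcripts and the genes they overlap may share reads.

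The largest rises started from transcripts that were almost absent in WT cells. LHX3, a LIM homeobox factor of pituitary and motor neuron development at chr9:139088096-139096974 (GRCh37, minus strand), had no count in the WT libraries and 15.2, 17.3 and 14.2 CPM in the DAXX_KO libraries, at least 46.9-fold more. NR0B1 (DAX1), an orphan nuclear receptor of the adrenal and gonad, was 0.296, 0.343 and 0.358 CPM in WT, which is 3 counts in each library. It was 14.7, 12.7 and 16.5 CPM in DAXX_KO, a rise of 5.41 on the log2 scale (SE 0.33). PPARG, the nuclear receptor that directs fat cell formation, was 0.691, 0.229 and 0.477 CPM in WT and 18.5, 19.2 and 17.7 CPM in DAXX_KO. Transcription factors were thus among the genes that went from at or near the limit of detection to a level seen in all 3 DAXX_KO libraries.

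TMTC1, an O-mannosyltransferase of the endoplasmic reticulum, was 0.790, 1.26 and 0 CPM in WT and 58.2, 56.3 and 56.4 CPM in DAXX_KO, a rise of 6.32 on the log2 scale (SE 0.25, adjusted p = 1.70e-13). PTGES, which makes prostaglandin E, was 1.58, 0.343 and 2.74 CPM in WT and 56.2, 42.0 and 57.0 CPM in DAXX_KO. GPC6, a cell-surface heparan sulfate proteoglycan, rose from a mean of 1.03 to 34.3 CPM. The secreted or matrix proteins OLFML3 and THBS2, the microglial and osteoblast membrane protein TMEM119 and the Golgi-associated GASK1B rose from means below 0.5 CPM to means of 18.4, 15.8, 16.1 and 13.2 CPM. Also in this group was the lncRNA LINC01050, at least 54.1-fold higher. The gene ENSG00000255824, without a symbol or gene type in the annotation used, went from 1.80 to 120 CPM. All of these 12 genes were higher in each DAXX_KO library than in any WT library, and the rule that chose them also required the call to hold when any control library was left out.

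The largest falls ended at or near 0 counts. ELAVL4 (HuD), an RNA-binding protein of neurons at chr1:50489701-50669444 (GRCh37, plus strand), was 56.8, 57.3 and 73.2 CPM in WT and 0.250, 0 and 0.239 CPM in DAXX_KO, at least 166-fold less. PIEZO2, a mechanically gated ion channel of touch sensing, was 50.7, 59.9 and 60.1 CPM in WT and 0.125, 0.263 and 0.119 CPM in DAXX_KO, at least 152-fold less. AUTS2, a nuclear and cytoskeletal protein of neuronal development that spans chr7:69063282-70258492 (GRCh37, plus strand), was at least 118-fold lower. The other falls among the 12 were RUNX1T1 (at least 135-fold), LPAR1 (80.6), GCSAML (75.3), CLEC4OP (70.6), CA10 (63.6), NCAM2 (33.5), GABRB1 (32.3), CDH6 (31.5) and SLC25A4 (28.5). RUNX1T1 is a transcriptional corepressor, LPAR1 a receptor for lysophosphatidic acid, NCAM2 and CDH6 cell adhesion proteins, GABRB1 a GABA receptor subunit and SLC25A4 the ADP/ATP carrier of the mitochondrial inner membrane. GCSAML, CA10 and SLC25A4 had no count in any of the 3 DAXX_KO libraries.

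**Figure D2:**
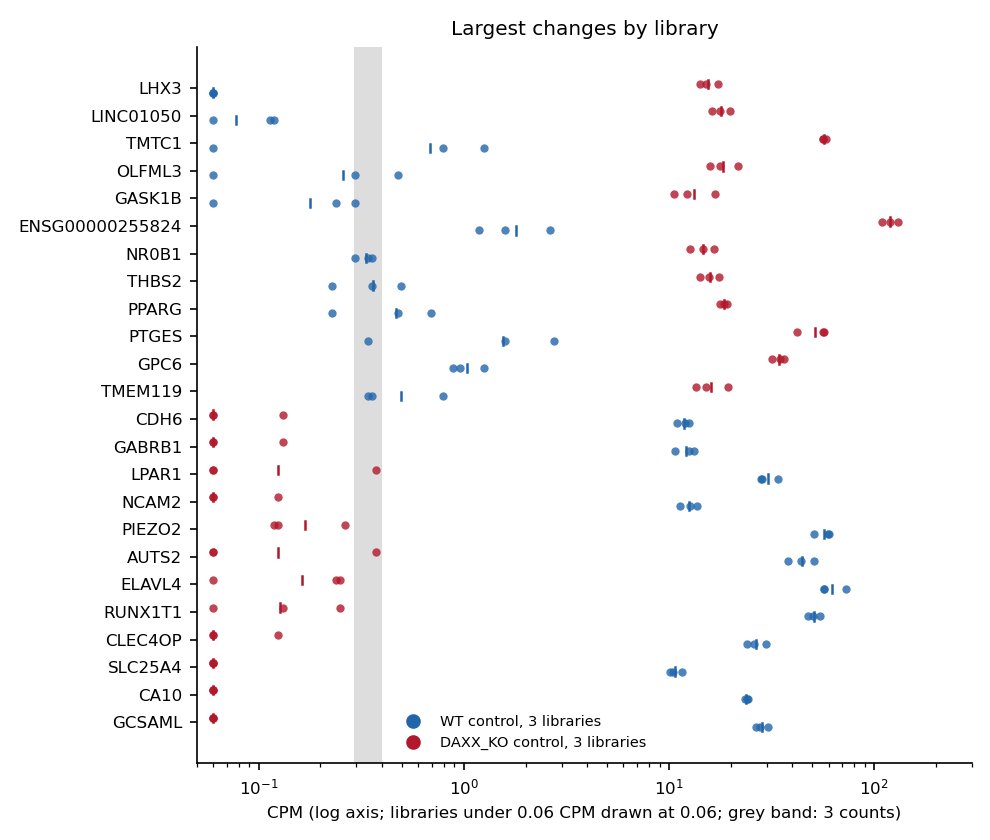
CPM of each control library on a log axis for the 12 genes with the largest rise (top) and the 12 with the largest fall (bottom) among called genes with at least 10 CPM in the higher group. Points are libraries, ticks are group means, and values under 0.06 CPM are drawn at 0.06. In every row the 3 WT and 3 DAXX_KO libraries lie apart, with the lower group at a mean of 1.80 CPM or less; the grey band marks 3 counts.

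Such on and off genes were counted for the whole table. At 3 counts or fewer in every DAXX_KO library and called lower were 145 genes, with a median of 2.24 CPM in WT, and 18 of them were at 10 CPM or more. In the other direction, 143 genes were at 3 counts or fewer in every WT library and called higher, with a median of 1.44 CPM in DAXX_KO. The silent set held 112 protein-coding genes, which span a median of 65.9 kb of the genome against 34.5 kb for all tested protein-coding genes. The activated set held 99 protein-coding genes and 37 lncRNAs, with a median span of 32.7 kb for the coding ones. Of the activated genes, 78 were also at the floor in the WT libraries of the ATRX series, and 0 of the silent genes were. With etoposide, 79 of the 145 silent genes were at the floor in DAXX_KO, and 47 of the 143 activated genes in WT. The names silent and activated therefore stand for counts in control cells only. At least 10 CpG sites in the 300 bases around the start were found in 73.8% of the silent and 68.2% of the activated genes' promoters, against 86.6% for all tested genes with a promoter in the RefSeq table. Both sets were picked by counts near 0 in 1 group, and their levels were low. The median of all tested genes in the higher group was 18.6 CPM. Spans and CpG shares were not compared with genes of like level, so whether level accounts for these contrasts was not tested.

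By amount rather than ratio, the change was led by abundant transcripts. FTH1, the heavy chain of the iron store ferritin, rose from 2980 ± 87.7 to 6620 ± 169 CPM (SD, n = 3), and TMSB4X, which sequesters actin monomers, rose from 1360 to 3110 CPM. CD63, a tetraspanin of late endosomes and lysosomes, the nuclear lncRNA MALAT1, the aldose reductase AKR1B1 and the GTPase RAC1 completed the 6 largest rises. The largest falls were those of BCYRN1, a small brain cytoplasmic RNA, of MT2A from 19400 to 8360 CPM, of ACTG1 (cytoplasmic actin) from 7580 to 3640 CPM, and of HSP90AA1, LGALS1 and TUBA1B. BCYRN1 was 49500, 68100 and 75400 CPM in WT and 49100, 41300 and 53400 CPM in DAXX_KO, so its libraries overlapped, and it was not called after scaling by library totals. TUBA1B and ACTG1 have near-identical relatives with which reads may be shared.

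H3.3 genes were lower in the cells that lacked their chaperone. H3-3B was 1900, 1880 and 1950 CPM in WT and 763, 741 and 701 CPM in DAXX_KO, a fall by 1.38 on the log2 scale (SE 0.05, adjusted p = 1.01e-13). H3-3A fell by 0.60 (SE 0.06). H3-3B lies in a part of chromosome 17 where most genes were lower, and the median of both H3.3 genes was −0.99, or −0.57 when centred on neighbouring genes. Of the 7 other H3.3 chaperones, 2 were called higher and 3 lower, among the latter ASF1A (24.5 to 13.3 CPM), which hands H3-H4 dimers to other chaperones, and DEK (375 to 263 CPM). Of 10 PML body genes, 1 was called higher and 5 lower, including the kinase HIPK2, which phosphorylates p53, from 653 to 352 CPM, and SUMO2 from 674 to 398 CPM. The heterochromatin corepressor TRIM28 (KAP1) fell from 185 to 115 CPM and the maintenance DNA methyltransferase DNMT1 from 420 to 256 CPM, while the demethylating enzyme TET2 rose from 7.31 to 13.9 CPM. Over 45 tested genes of H3.3 deposition and heterochromatin, 12 were higher and 16 lower, close to the shares of all genes, and the median log2 fold change of −0.13 turned to 0.05 after scaling by library totals.

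Among telomere genes, calls were mostly lower. Of 7 telomerase genes, 5 were called lower and 0 higher, and of 6 shelterin genes 3 were lower and 0 higher, with TERF2 (TRF2) falling from 80.3 to 52.2 CPM. TERT was 22.6, 38.5 and 22.1 CPM in WT and 8.36, 10.8 and 10.7 CPM in DAXX_KO, but reads from the TERT gene and from the transgene that both lines carry cannot be told apart. The 14 genes of the CST complex and of ALT split into 3 higher and 4 lower, with BLM, a helicase that dissolves recombination intermediates, falling from 26.1 to 14.1 CPM. The medians of the telomere lists lay between −0.43 and −0.08, and after scaling by library totals those of shelterin and of the CST and ALT genes were −0.03 and 0.10.

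Replication and mitosis genes were lower as groups. DNA replication starts with the loading of the origin recognition complex and the MCM helicase, which CDC6 assists. Of 21 origin licensing and firing genes, 18 were called lower and 0 higher, with a median log2 fold change of −0.53. CDC6 was 103, 100 and 93.1 CPM in WT and 40.9, 37.2 and 36.1 CPM in DAXX_KO. The GINS subunit GINS4 fell from 109 to 39.9 CPM and ORC1 from 23.9 to 9.26 CPM, whereas the helicase subunit MCM7 stood at 270 and 253 CPM and was not called. All 7 tested genes of deoxynucleotide supply fell, among them RRM2, the ribonucleotide reductase subunit that limits dNTP production, from 590 to 247 CPM, and TK1 from 177 to 88.7 CPM. For polymerase and fork genes, 12 of 20 were lower and 4 higher, with POLD2 rising from 118 to 161 CPM.

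Mitotic genes gave 41 lower and 0 higher calls among 59, with a median of −0.44. CDC20, the activator of the anaphase-promoting complex, was 364, 352 and 345 CPM in WT and 162, 162 and 171 CPM in DAXX_KO. The kinetochore protein CENPF fell from 1210 to 574 CPM, the centrosomal kinase NEK2 from 139 to 48.7 CPM and the kinesin KIF14 from 83.0 to 39.5 CPM. TPX2, which activates Aurora A on the spindle, was at 407 and 406 CPM and did not follow, and TOP2A, a target of etoposide, fell by 0.33 on the log2 scale from 2110 to 1680 CPM. Replication-dependent histone genes, whose transcripts mostly lack a poly-A tail and are poorly captured by these libraries, gave 12 lower and 0 higher calls among 18. Among these the linker histone H1-3 fell from 21.6 to 0.244 CPM, at least 57.6-fold.

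Regulators of the G1/S step did not share a direction, with 7 higher and 4 lower of 17 tested. CCND1 (cyclin D1) fell from 466 to 175 CPM and its partner kinase CDK6 from 118 to 60.8 CPM. MYBL2 (B-MYB), a transcription factor of proliferating cells, rose from 52.7 to 117 CPM and E2F1 from 71.7 to 105 CPM. CCND2 was 0.0988, 0.114 and 0.238 CPM in WT and 0.499, 1.05 and 1.55 CPM in DAXX_KO, at least 3.11-fold higher, near the limit of detection. Homologous recombination and Fanconi genes, which repair double-strand breaks and crosslinks, were called lower in 15 and higher in 1 of 28, with FANCD2 going from 103 to 57.0 CPM and RAD51C from 47.8 to 18.0 CPM.

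Promoter sequence from RefSeq, covering 250 bases before to 50 bases after the start of the gene (GRCh38.p14), was searched on both strands for letters that are known for cell cycle and interferon genes. The CHR element TTTGAA stood in 25 of the 37 promoters (67.6%) found for the mitotic genes that were lower, against 15.4% of 27305 promoters in all and 9.95% of those of tested genes. The CCAAT box, spelled CCAAT, stood in 29 of the 37 (78.4%), against 35.7% of all promoters. An E2F motif, TTTCCCGC or TTTGGCGC, stood in 7 of 15 promoters (46.7%) of the origin licensing genes that were lower, against 2.31% of all. The interferon-stimulated response element (GAAA, any 2 bases, GAAA) stood in 8 of 12 promoters (66.7%) of the interferon effectors that were higher, against 3.65% of all. These shares describe the gene lists, and a match of letters is not a binding site. They also describe genes that were known for such motifs before this comparison. Shown are promoters of members with a motif and a large change, chosen after their values were seen, with the motif in capitals on either strand.
CDC20 (chr1:43358731-43359030, plus strand, CHR and CCAAT box): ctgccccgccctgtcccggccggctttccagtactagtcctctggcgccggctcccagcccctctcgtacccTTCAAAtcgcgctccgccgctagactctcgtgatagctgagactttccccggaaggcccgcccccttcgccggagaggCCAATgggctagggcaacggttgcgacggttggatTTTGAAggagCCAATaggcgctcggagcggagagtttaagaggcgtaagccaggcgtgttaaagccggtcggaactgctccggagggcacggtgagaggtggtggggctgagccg
CENPF (chr1:214602945-214603244, plus strand, CHR and CCAAT box): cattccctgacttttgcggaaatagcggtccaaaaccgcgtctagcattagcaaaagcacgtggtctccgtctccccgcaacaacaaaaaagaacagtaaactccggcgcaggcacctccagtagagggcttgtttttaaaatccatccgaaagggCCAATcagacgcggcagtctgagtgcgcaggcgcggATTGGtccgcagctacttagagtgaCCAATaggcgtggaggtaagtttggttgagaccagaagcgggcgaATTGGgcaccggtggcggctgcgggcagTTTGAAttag
CDC6 (chr17:40287629-40287928, plus strand, E2F): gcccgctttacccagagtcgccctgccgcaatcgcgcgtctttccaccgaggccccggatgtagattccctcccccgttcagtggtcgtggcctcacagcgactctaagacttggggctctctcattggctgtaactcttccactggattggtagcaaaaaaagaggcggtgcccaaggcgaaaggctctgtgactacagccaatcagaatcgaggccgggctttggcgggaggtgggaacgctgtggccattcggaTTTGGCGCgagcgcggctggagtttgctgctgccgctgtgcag
DDX60 (chr4:168318703-168319002, minus strand, interferon-stimulated response element): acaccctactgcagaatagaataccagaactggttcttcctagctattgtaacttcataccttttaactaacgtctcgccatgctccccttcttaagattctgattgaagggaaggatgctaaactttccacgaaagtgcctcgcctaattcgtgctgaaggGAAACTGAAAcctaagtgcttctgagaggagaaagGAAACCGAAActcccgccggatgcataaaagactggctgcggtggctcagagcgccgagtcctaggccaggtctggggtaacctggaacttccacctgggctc

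Genes of ribosome production and protein synthesis were lower as well. Nucleolar proteins, a list added after values were seen, were called lower in 26 of 28 and higher in 0, with a median of −0.82. NPM1 (nucleophosmin) was 2410, 2280 and 2580 CPM in WT and 1230, 1140 and 959 CPM in DAXX_KO, and NOLC1, NOP56 and PES1, which assemble or modify ribosomal RNA, fell by 1.37, 1.38 and 1.36 on the log2 scale. RNA polymerase I genes gave 9 lower and 0 higher calls among 13, with the promoter factor TAF1A falling from 15.5 to 5.17 CPM. Cytosolic ribosomal protein genes were called lower in 53 and higher in 4 of 82 (median −0.37), with RPL38 at 1310 and 616 CPM and RPL4 at 272 and 136 CPM, and RPS3A rose from 209 to 263 CPM. Ribosomal protein genes have many pseudogenes, so counts of single members are uncertain. Mitochondrial ribosomal proteins were lower in 45 and higher in 3 of 76, and cytoplasmic tRNA synthetases lower in 13 and higher in 1 of 18.

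Translation initiation and elongation factors gave 40 lower and 6 higher calls among 62, led by EIF3D (523 to 191 CPM) and EIF3L (339 to 131 CPM), subunits of the scaffold of initiation. EEF1A1, which brings tRNA to the ribosome and has many pseudogenes, fell from 4000 to 3060 CPM, and neither it nor RPS12 (3140 to 2540 CPM) was called after scaling by library totals. All 8 subunits of the chaperonin CCT, which folds actin and tubulin, fell, with CCT5 at 631, 608 and 588 CPM in WT and 284, 285 and 283 CPM in DAXX_KO. The spliceosomal HNRNP proteins, a family added after values were seen, were lower in 19 and higher in 1 of 25, with HNRNPA3 falling from 526 to 230 CPM, and SR splicing factors, also added, were lower in 7 and higher in 0 of 11. SRSF1 fell from 261 to 123 CPM.

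Of 36 proteasome subunits, 26 were lower and 5 higher. PSMC5 (349 to 121 CPM) and PSMD12 (189 to 74.1 CPM), which belong to the regulatory cap, were among the lower ones. The higher ones included the immunoproteasome subunits PSMB8 (32.8 to 47.6 CPM), PSMB9 (30.4 to 43.2 CPM) and PSMB10 (29.3 to 38.1 CPM), which shape peptides for antigen presentation. The rise of PSMB10 was small, at 0.38 on the log2 scale (SE 0.12, adjusted p = 0.0145), and was not called when WT replicate 1 (0.33), WT replicate 2 (0.32) or DAXX_KO replicate 1 (0.28) was left out.

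**Figure D3:**
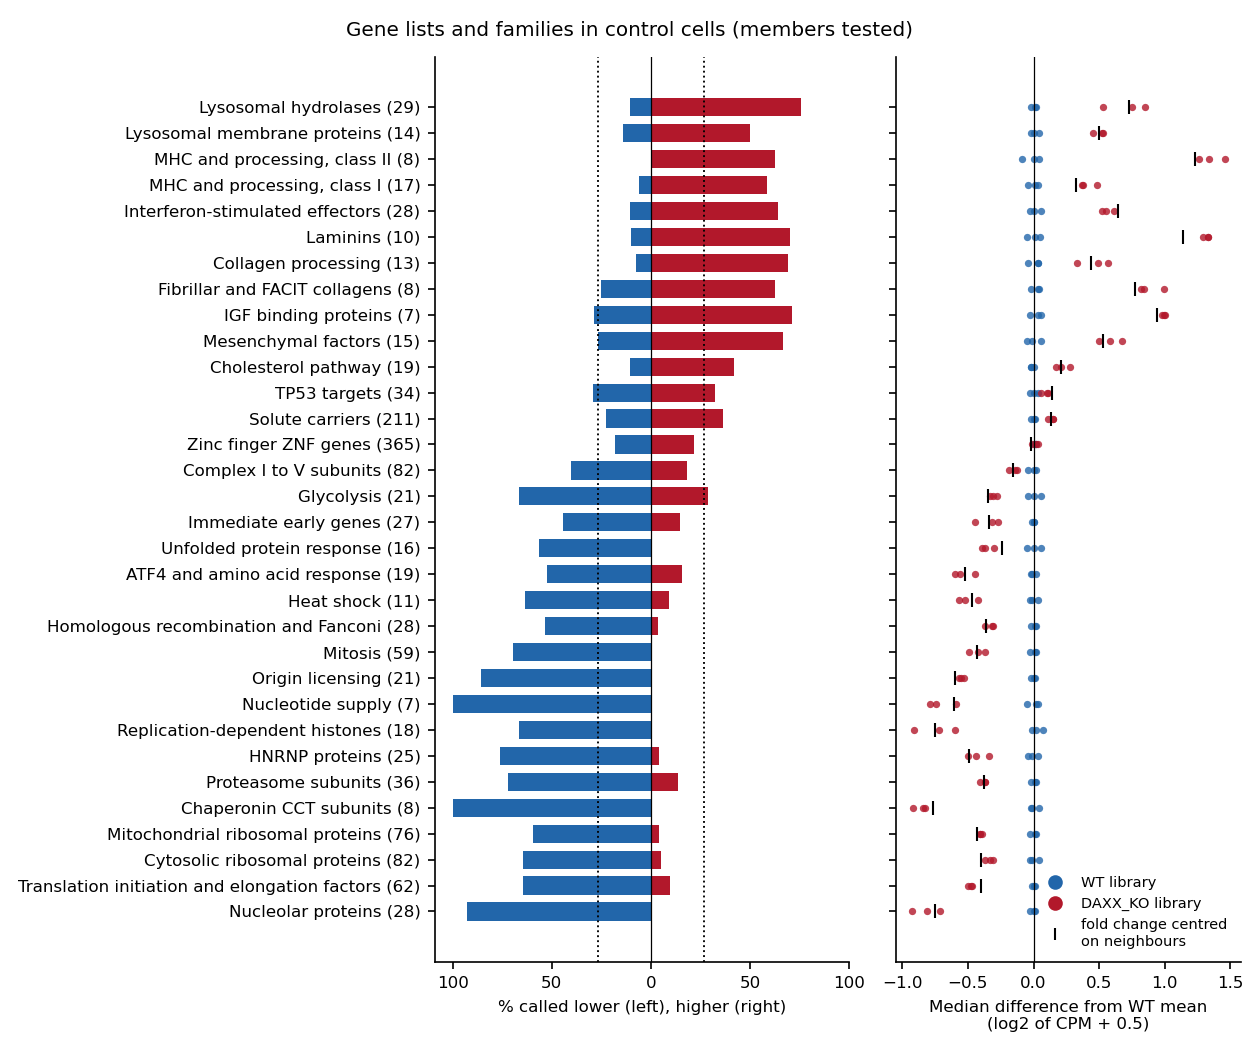
Left, percent of tested members called lower (blue) and higher (red) in selected lists and families, with the number tested in parentheses and dotted lines at the shares of all genes (26.5% lower, 26.9% higher). Right, the median over members of each library's difference from the WT mean on the scale of log2 of CPM + 0.5 for WT (blue) and DAXX_KO (red), with ticks for median log2 fold changes centred on neighbouring genes. Of the lists drawn, which are a selection, nucleolar proteins (−0.93 to −0.71) and CCT subunits (−0.92 to −0.83) lie to the left in all DAXX_KO libraries, and class II genes (1.26 to 1.46) and laminins (1.29 to 1.33) to the right.

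Lysosomal genes went the other way. Of 29 lysosomal hydrolases, a list added after values were seen, 22 were called higher and 3 lower, with a median of 0.74. PSAP, the precursor of the saposins that help degrade sphingolipids, was 289, 303 and 299 CPM in WT and 702, 701 and 723 CPM in DAXX_KO. The cathepsins CTSF (4.63 to 26.1 CPM), CTSO (1.78 to 11.6 CPM) and CTSS (21.8 to 68.4 CPM) rose, as did the membrane protein LAMP2 (114 to 250 CPM). TFE3, a transcription factor of lysosomal genes, rose from 37.7 to 88.6 CPM. V-ATPase subunits, the proton pump of the lysosome and likewise an added family, were higher in 9 and lower in 3 of 20, with ATP6V1F rising from 357 to 744 CPM.

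Antigen presentation and interferon-stimulated genes were higher. MHC class I and its peptide loading machinery were called higher in 10 and lower in 1 of 17. TAPBP (tapasin) was 41.7, 39.3 and 41.5 CPM in WT and 75.3, 77.9 and 95.3 CPM in DAXX_KO, HLA-E rose from 47.0 to 96.6 CPM, and NLRC5, the transactivator of class I genes, rose from 5.49 to 13.6 CPM. B2M, the light chain of class I, was 924 and 1050 CPM, a rise of 0.19 on the log2 scale (adjusted p = 0.0159) that was lost when WT replicate 2 (0.16), WT replicate 3 (0.17) or DAXX_KO replicate 2 (0.18) was left out, and with RLE size factors (0.15) or DESeq2 (0.15). Class II genes, which present peptides to helper T cells, were higher in 5 and lower in 0 of 8, with HLA-DRB1 at 30.8, 33.5 and 32.0 CPM in WT and 85.6, 86.5 and 91.1 CPM in DAXX_KO. HLA genes are polymorphic and closely related, and the sharing of reads among them is uncertain.

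Of 28 interferon-stimulated effectors, 18 were higher and 3 lower, with a median of 0.68. DDX60, a helicase of antiviral signalling whose promoter is shown above, rose from 3.93 to 12.3 CPM, and the oligoadenylate synthetase family gave OASL at 1.47 and 3.81 CPM and OAS2 at 2.22 and 5.22 CPM. IFI6 fell from 28.5 to 15.5 CPM and SAMD9 from 77.8 to 42.5 CPM. For the sensors and signalling genes of the pathway, 3 of 14 were higher and 2 lower, with a median of 0.02. The difference between the lists was not tested.

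In the extracellular matrix, 35 of 69 genes were higher and 15 lower. Laminins, trimers of the basement membrane, were higher in 7 and lower in 1 of 10, with a median of 1.34. LAMB3 was 14.6, 13.5 and 12.9 CPM in WT and 175, 172 and 148 CPM in DAXX_KO, and LAMA3 was at least 6.53-fold higher. FN1 (fibronectin) rose from 200 to 775 CPM and the small proteoglycan LUM was at least 29.8-fold higher, at a mean of 9.90 CPM. COL5A1 rose from 48.4 to 146 CPM and COL14A1 was at least 13.8-fold higher, whereas COL1A1 fell from 407 to 254 CPM and COL13A1 from 116 to 14.1 CPM. Enzymes and chaperones of collagen processing were higher in 9 and lower in 1 of 13, with the collagen chaperone SERPINH1 rising from 11.5 to 44.9 CPM and the crosslinking oxidase LOX falling from 40.1 to 12.8 CPM. The glycoprotein THBS1 fell from 85.5 to 5.01 CPM, opposite to its paralog THBS2.

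All 3 genes listed for the plasminogen system, by which cells dissolve fibrin and matrix, were called lower, PLAT less firmly than the others. PLAU (urokinase) was 2070, 1820 and 1640 CPM in WT and 92.6, 103 and 95.5 CPM in DAXX_KO, a fall by 4.25 on the log2 scale (SE 0.17, adjusted p = 1.39e-13), and its receptor PLAUR fell from 286 to 165 CPM. PLAT (tissue plasminogen activator) was 4.05, 6.06 and 7.04 CPM in WT and 4.12, 3.41 and 3.58 CPM in DAXX_KO, which is −0.61 on the log2 scale (SE 0.25, adjusted p = 0.0427). Its groups overlap, and it was not called when any library other than WT replicate 1 was left out (−0.69 to −0.44) or after scaling by library totals (−0.43). SERPINB2, an inhibitor from another list, fell from 8.73 to 0.166 CPM. MMP14 rose from 49.4 to 141 CPM and the aggrecanase ADAMTS5 from 4.18 to 43.9 CPM. Enzymes that act on the matrix were thus not shifted in a single direction, with 11 higher and 13 lower of 34 proteases and inhibitors. Integrin chains were higher in 8 and lower in 4 of 17, and the collagen receptor subunit ITGA2 (107 to 26.9 CPM) and the laminin receptor subunit ITGA6 (5.86 to 0.210 CPM) were among the lower ones.

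Among signals between cells, CD70 of the TNF family was 4.05, 5.03 and 4.89 CPM in WT and 74.0, 73.8 and 76.7 CPM in DAXX_KO, and CSF1, the macrophage growth factor, rose from 6.43 to 62.0 CPM. The chemokine CCL2 fell from 15.4 to 1.88 CPM and HGF, the ligand of MET, from 124 to 25.5 CPM. Binding proteins of the insulin-like growth factors were higher in 5 and lower in 2 of 7, with IGFBP4 rising from 3.99 to 36.6 CPM and IGFBP5 at least 10.2-fold higher. IGFBP2 was 11.6, 12.6 and 12.2 CPM in WT and 2.00, 4.73 and 0.597 CPM in DAXX_KO, and it was not called by DESeq2. IGF2 had no count in the DAXX_KO libraries and was at least 5.01-fold lower. Semaphorins and their receptors were higher in 9 and lower in 6 of 19, among the latter the repulsive cue SEMA3A, from 80.9 to 2.35 CPM.

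Transcription factors of cell identity moved in both directions. SOX4 was 204, 235 and 232 CPM in WT and 3.99, 3.81 and 1.79 CPM in DAXX_KO, a fall by 6.13 on the log2 scale (SE 0.14, adjusted p = 1.38e-16). SOX9 fell from 98.0 to 38.5 CPM and FOXF1 from 32.5 to 1.77 CPM, and NFIB, a factor of glial differentiation, rose from 52.5 to 121 CPM. SOX2, at 1.38, 1.03 and 2.38 CPM in WT and 0.624, 0.263 and 0.119 CPM in DAXX_KO, was called (adjusted p = 0.0193), but not when WT replicate 3 or DAXX_KO replicate 2 or 3 was left out. HOX genes were lower in 10 and higher in 6 of 23. The neighbours HOXC8, HOXC9 and HOXC10 on chromosome 12 fell to 0.625, 2.48 and 0.707 CPM from 15.9, 16.9 and 30.5 CPM, while HOXA5 on chromosome 7 rose from 1.33 to 10.6 CPM. Mesenchymal genes were higher in 10 and lower in 4 of 15, with the contractile proteins MYL9 (17.5 to 64.4 CPM) and CNN1 (1.93 to 8.54 CPM) among the higher and the intermediate filament VIM (5660 to 3650 CPM) among the lower.

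Clustered protocadherins, cell recognition proteins of which many are made from alternative first exons, gave 7 higher and 0 lower calls among 14. PCDHGA10 rose from 46.8 to 139 CPM. PCDHGA9 had no count in WT and 0, 8.93 and 4.42 CPM in DAXX_KO, so its call rests on 2 libraries and was lost without DAXX_KO replicate 2. PCDHGA9 and PCDHGA10 belong to the gamma cluster, whose members share their 3′ exons, and the assignment of 3′ reads to such a member is uncertain. Among GABA receptor subunits, a family added after values were seen, GABRA2 fell from 16.3 to 0.0814 CPM, at least 43.5-fold, whereas GABRA3 rose from 70.2 to 175 CPM. For imprinted genes, 8 were higher and 9 lower of 19, with PEG10 falling from 251 to 45.8 CPM and PLAGL1 rising from 0.600 to 11.1 CPM.

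Stress and metabolic genes separated by pathway. Metallothioneins, which bind zinc and copper, were lower in 4 and higher in 1 of 5, with MT1X at 329, 290 and 287 CPM in WT and 90.7, 91.8 and 90.9 CPM in DAXX_KO and MT1G falling from 11.1 to 0.586 CPM. These genes are close copies of each other and may share reads. Heat shock genes were lower in 7 and higher in 1 of 11, and genes of the unfolded protein response lower in 9 and higher in 0 of 16, with XBP1 (42.0 to 20.4 CPM) and HSPA5 (1140 to 861 CPM) among them. ATF4, the transcription factor of the amino acid response, fell from 228 to 97.6 CPM, and its list gave 10 lower and 3 higher calls among 19, with the amino acid transporters SLC7A5 (65.7 to 11.9 CPM) and SLC7A11 (88.1 to 30.5 CPM) among the lower.

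NRF2 targets, which serve the response to oxidants, were higher in 9 and lower in 4 of 15. The aldo-keto reductases AKR1C1 (3.60 to 52.8 CPM), AKR1C2 (0.689 to 15.3 CPM) and AKR1C3 (0.743 to 18.8 CPM) rose, but they are near-identical and may share reads. NQO1 rose by 0.25 on the log2 scale (250 to 296 CPM), and TXNRD1 fell from 237 to 117 CPM. Among lipid genes, the desaturase SCD rose from 115 to 440 CPM, the cholesterol exporter ABCA1 from 23.2 to 144 CPM, the regulator SREBF1 from 13.0 to 34.1 CPM and the sterol oxidase MSMO1 from 23.7 to 46.5 CPM. The cholesterol pathway as a list gave 8 higher and 2 lower of 19, with a median of 0.22. Glycolysis genes were lower in 14 and higher in 6 of 21, and complexes I to V of respiration lower in 33 and higher in 15 of 82, with medians of −0.32 and −0.14, and the latter turned to 0.04 after scaling by library totals.

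Of 34 tested p53 targets in the list used here, 11 (32.4%) were higher and 10 (29.4%) lower without etoposide, with a median of 0.08. These shares were near those of all genes (26.9% and 26.5%). The study took its known targets from a published list instead. From genes changed in both knockouts, it predicted p53 to be more active in them. Among the direct targets it named are TMTC1, PTGES, CSF1, PLAGL1 and CD70, whose rises are given above. CDKN1A (p21), the inhibitor of cyclin-dependent kinases, was 150, 155 and 139 CPM in WT and 213, 201 and 209 CPM in DAXX_KO, a rise of 0.49 on the log2 scale (SE 0.06, adjusted p = 1.57e-06). The stress cytokine GDF15 rose from 10.5 to 42.9 CPM and BBC3 (PUMA), which triggers apoptosis, from 8.78 to 24.4 CPM. GADD45A fell from 76.2 to 29.2 CPM and PERP from 178 to 74.7 CPM.

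**Figure D4:**
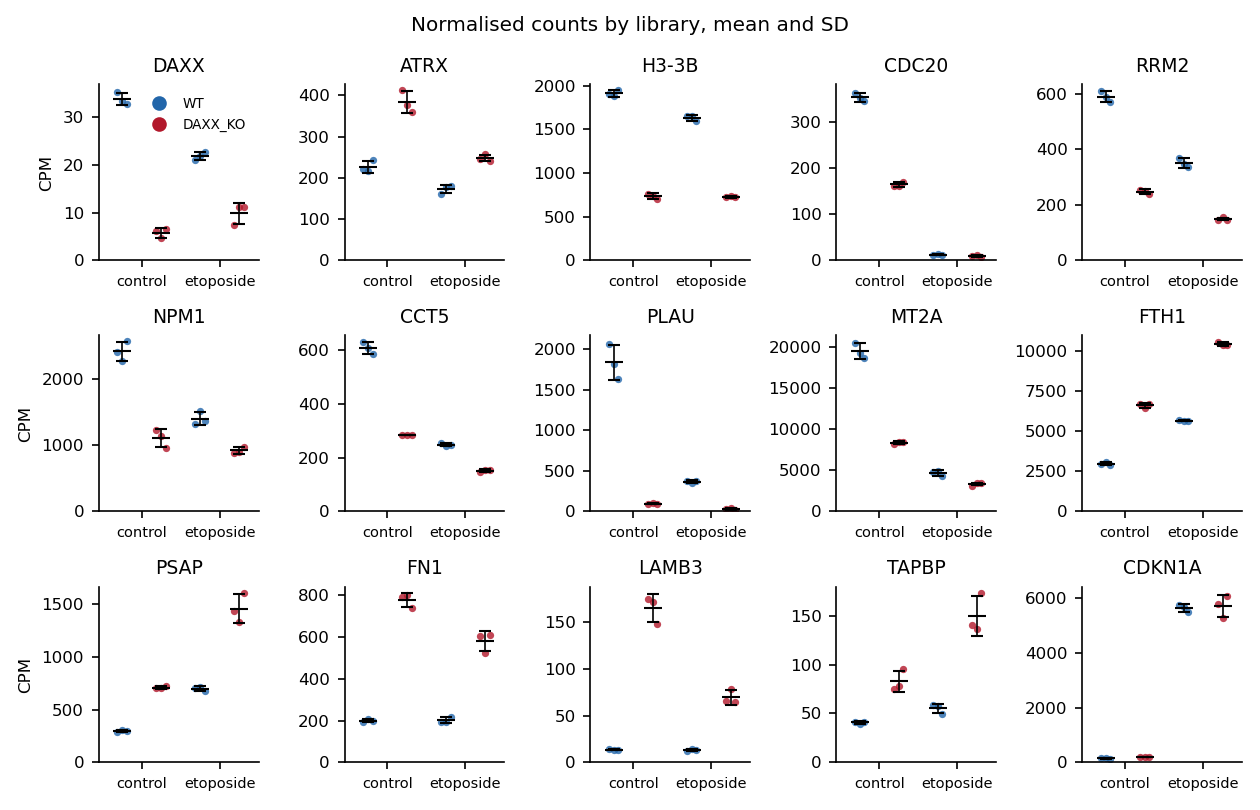
CPM of single libraries (points) with mean and SD (bars, n = 3) for 15 genes in WT (blue) and DAXX_KO (red), in control cells and with etoposide. In control cells the WT and DAXX_KO libraries lie apart in every panel, for example PLAU at 1640 to 2070 CPM in WT and 92.6 to 103 CPM in DAXX_KO.

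The median log2 fold change was 0.49 on chromosome 4 and 0.43 on chromosome X, and −0.38 on chromosome 22 and −0.32 on chromosome 17. Tested genes in genome order were cut into 247 blocks of about 60 genes, of which 27 had a median of at least 0.4 and 17 a median of −0.4 or less. Joined, these formed 23 stretches with 17.8% of the placed genes. Since the stretches were chosen by their medians, the calls within them are a description set by that choice. In the 16 higher stretches 920 of 1607 genes were called higher and 125 lower, and in the 7 lower stretches 616 of 1033 were called lower and 82 higher. Outside them 51.2% of 12187 genes were still called, 3024 higher and 3211 lower.

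The longest lower stretch by genes was chr17:46626232-81052867 (GRCh37), where 216 of 360 genes were lower and 25 higher, with a median of −0.60. At chr22:26825226-51237551, 151 of 251 genes were lower and 18 higher (median −0.61), and at chr1:201487831-222841349 the median was −0.69 over 121 genes. Higher stretches included chr9:132094579-140764468 (median 0.66 over 120 genes) and chr10:176028-51893269 (median 0.51 over 176 genes). Genes named above lie in such stretches, among them H3-3B, PSMC5, PSMD12, RPL38 and SRSF1 on chromosome 17. Others are EIF3D, EIF3L, PES1, LGALS1, ATF4 and XBP1 on chromosome 22, LHX3 and PTGES at the end of chromosome 9, and ATRX on chromosome X. When each gene was centred on its 30 neighbours on each side, the medians were −0.75 for nucleolar proteins, −0.77 for CCT subunits, −0.60 for origin licensing, −0.43 for mitosis, −0.40 for translation factors, 0.73 for lysosomal hydrolases, 0.64 for interferon effectors, 1.14 for laminins and 1.23 for class II genes. The medians of these lists kept their sign, while others shrank, such as H3.3 genes from −0.99 to −0.57, metallothioneins from −1.22 to −0.82, integrin beta chains from 0.55 to 0.25, network and other collagens from 0.46 to 0.21 and genes of iron storage and transport from 0.54 to 0.20. The median of the APOBEC3 enzymes changed sign, from −0.41 to 0.18.

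**Figure D5:**
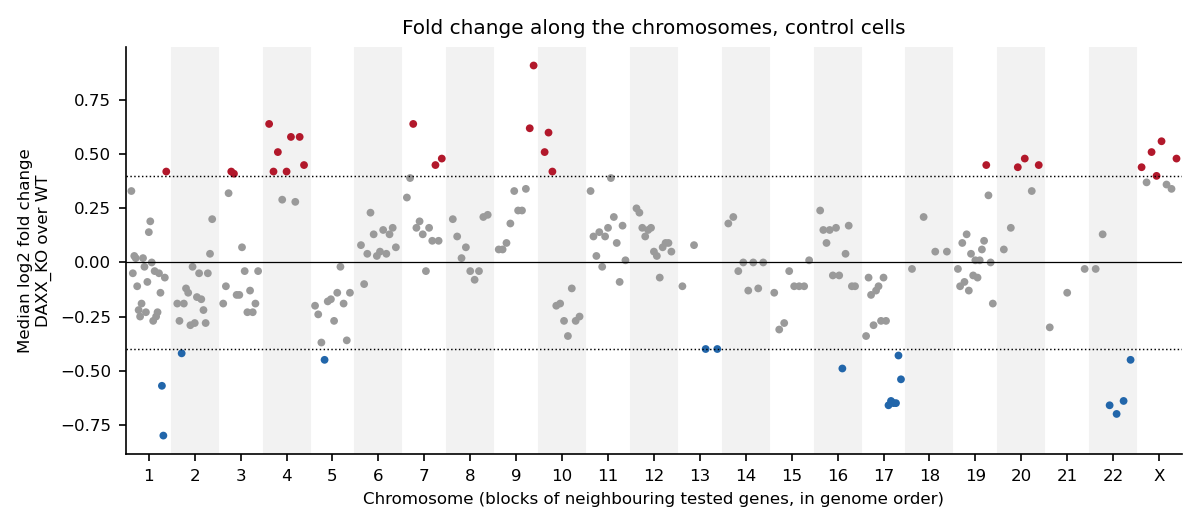
Median log2 fold change of DAXX_KO over WT in each of 247 blocks of about 60 tested genes, in genome order, with shading that separates chromosomes. Red blocks are at 0.4 or more (27 blocks) and blue blocks at −0.4 or less (17 blocks), as the dotted lines mark, and chromosomes 4, X, 17 and 22 hold runs of such blocks.

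The comparison was repeated in the 6 libraries of the same lines treated with etoposide, a topoisomerase II poison, where 8085 genes (53.0%) were called. Of the 8145 genes called in control cells, 5724 (70.3%) were called in the same direction with etoposide, 255 in the opposite direction, and 2166 were not called. Of the genes called at 2-fold or more, 2032 of 2547 (79.8%) were called in the same direction. All 12 of the largest rises and all 12 of the largest falls were called in the same direction. The lysosomal hydrolases (median 0.75), class II genes (1.33), laminins (1.02) and CCT subunits (−0.50) kept their sign, and nucleolar proteins had a median of −0.63. For mitosis the counts were 12 higher and 19 lower with a median of −0.15, and for p53 targets 3 higher and 25 lower with a median of −0.53.

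ATRX_KO, the knockout of the partner gene in the same parental line, was measured against 3 WT libraries of its own. Its control comparison called 43.2% of 16674 genes. Of the 12 largest rises in DAXX_KO, 9 were called higher in ATRX_KO, and all 12 of the largest falls were called lower. The ATRX-series WT libraries stood on the WT side for all 24 of them. Class II genes had a median of −1.89 in ATRX_KO and 1.56 in DAXX_KO, and collagens of the fibrillar and FACIT classes −0.69 and 0.89. Nucleolar proteins (−0.15), cytosolic ribosomal proteins (−0.04) and metallothioneins (0.07) had medians near 0 in ATRX_KO, and the stretch on chromosome 22 had medians of −0.59 in ATRX_KO and −0.61 in DAXX_KO. Differences between the knockouts were tested for single genes only, not for lists or stretches.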

How the data were processed

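RNA-seq libraries of WT and DAXX_KO U87-T cells were analysed from the deposited table. The authors prepared QuantSeq 3′ libraries, aligned single-end reads with STAR to hg19 and estimated counts with RSEM (version 1.2.3 per the processing notes). The deposited values are expected counts of 57736 Ensembl genes, already whole numbers, without normalization, and totals over the 24 libraries ranged from 6928950 to 13298557. Symbols and positions came from GENCODE on GRCh37, with a match for 55501 gene IDs (98.8% of the counts). ChIP-seq and ATAC-seq were not used here.

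Groups followed the sample titles. Counts were tested with edgeR 4.0.16 in R 4.3.3 (TMM scaling, genes kept by filterByExpr at its defaults of 10 counts and a total of 15, quasi-likelihood test). The 12 libraries of the DAXX series formed 1 model of 4 groups, with Benjamini-Hochberg adjustment over all 15247 genes and an FDR of 0.05. A second model, of all 24 libraries, tested differences from the ATRX series. Replicates of the control groups differed by a chi-square of 2.32 to 7.26 per degree of freedom, above counting error.

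Gene lists were described by counts and medians, without set tests. Members, lists, rules and alternatives were chosen with earlier results of these data known, and the lists on lysosome and iron storage and on ribosome biogenesis and the families of V-ATPase, HNRNP, SR, GABA receptor, serpin, importin and exportin genes were added after values were seen. Genes were named from a rule that covers DAXX and ATRX, the 12 largest rises and falls by fold change among called genes with at least 10 CPM in the higher group and a call that held without each library, the 6 largest rises and falls in CPM, and in each list up to 3 called members in each direction, every member of lists of up to 8 genes, and the member with the highest mean. Not every gene that the rule covers is named, and the result of 1 of them is not reported here. On simulated counts for 14780 genes, 41 of 50 genes raised and 37 of 49 lowered 2-fold were recovered, and 50 of 50 and 41 of 47 at a log2 change of 2, with 6 false calls. All other genes were left unchanged there and the spread came from the fit, whereas 53.4% of genes were called in the data. The number of false calls therefore does not carry over to the data.

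Alternatives were DESeq2 1.42.0, RLE size factors, library totals, no filter, at least 10 counts in every library, only the control libraries, all libraries in 1 model, a replicate block, leaving out each library, and centring on neighbouring genes. Figures were drawn with matplotlib 3.10.9.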

Additional observations from a re-analysis of the deposited data

Results flagged for a closer look

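The effect of the knockout in control cells was compared between DAXX_KO and ATRX_KO, each against the WT libraries of its own series, by a test of the difference itself in a model of all 24 libraries (edgeR quasi-likelihood test, Benjamini-Hochberg adjustment). The difference passed the test for 5693 of 16674 genes (34.1%). Values below are differences of log2 fold changes, DAXX_KO minus ATRX_KO, and no explanation for them was tested.

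Each knockout was set apart by its own gene, with a difference of −2.85 for DAXX and 2.01 for ATRX. Among the 12 largest rises in DAXX_KO, the difference was called for 8, which were PPARG (7.20), TMEM119 (6.16), LINC01050 (4.17), THBS2 (3.78), NR0B1 (3.58), OLFML3 (3.27), ENSG00000255824 (2.04) and GPC6 (1.92). LHX3 had a difference of 7.89 that was not called (adjusted p = 1.0), although it was at 15.2, 17.3 and 14.2 CPM in DAXX_KO and at 0.0853, 0 and 0.0783 CPM in ATRX_KO. Both WT groups have no count for it, and a p that misses the threshold does not show that the knockouts are alike. PPARG and TMEM119 were not called in ATRX_KO, where their log2 fold changes were −1.96 (adjusted p = 0.118) and −1.22 (adjusted p = 0.196). Among the 12 largest falls it was called for 6, which were GCSAML (−9.21), CLEC4OP (−6.82), SLC25A4 (−5.84), LPAR1 (−4.17), GABRB1 (−4.09) and PIEZO2 (−2.73). All 6 of these were also called lower in ATRX_KO, by less. Several of these genes have no count in 1 of the groups, so that the size of the difference depends on the small count that the fit adds.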

How the results depend on the processing

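The count of 8145 changed genes stayed within 1.5 times its value under each alternative, from 7007 of 11945 genes with at least 10 counts in every library to 8359 after scaling by library totals, with 7698 by DESeq2. Leaving out each control library gave 7491 to 7604 genes, and 6426 of the 8145 were called with the same sign in all of these fits. The count at 2-fold or more ranged from 2534 to 2639 without single libraries, against 2547, and was 1378 with at least 10 counts in every library, where genes near 0 in a group are not tested. With etoposide, 7319 to 7911 genes were called without single libraries, and the difference from ATRX_KO was called for 5080 to 5570. The share of calls that were higher was 50.3%, and 66.2% after scaling by library totals.

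Of 184 genes taken from the naming rule for description, library totals reversed the sign of TPX2 (0.18, against −0.00, a gene that was not called) and ended the calls of RPS12 (−0.12), EEF1A1 (−0.20), BCYRN1 (−0.24) and PLAT (−0.43). Calls were lost for 3 genes by DESeq2, 2 with all libraries in 1 model, 1 with RLE size factors and 1 to 4 when a library was left out. PCDHGA9 was lost without DAXX_KO replicate 2 (7.27), SOX2 without WT replicate 3 (−1.82) and DAXX_KO replicates 2 (−2.07) and 3 (−1.80). B2M, PSMB10 and PLAT are described with their values above. These genes were kept in the count although their calls were unstable. The 12 largest rises and falls were chosen to hold in these fits, so their stability is no finding. Of 142 list medians, 19 changed sign with library totals and 10 when centred on neighbouring genes.

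Libraries with the same replicate number did not deviate together in WT and DAXX_KO (correlations of −0.0349 to −0.0147), so they were not treated as pairs. With a replicate block, 7955 genes were called in control cells (2521 at 2-fold or more), 7870 with etoposide and 5379 for the difference from ATRX_KO, and none of the 184 genes lost its call. At these depths, changes in genes at or below 3 counts per library could not be detected.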
